A study of Homo sapiens with 12 samples.

Results

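The 9 genes described here encode 6 STAT transcription factors, STAT2, STAT3, STAT4, STAT5A, STAT5B and STAT6, and 3 feedback inhibitors of the same pathway, SOCS1, SOCS3 and CISH. The members are a list of names, and no measured value enters the rule, but the list was chosen with earlier results of these data known. All 9 were found among the 55782 gene symbols of the deposited count table and passed the filter on low counts that left 15535 genes for testing. The RNA came from mixed cultures of 2 human lines, the T cell leukaemia line Jurkat, carrying LAG3 and PD1, and the Burkitt lymphoma line Raji, a B cell line carrying PDL1. PD1 and LAG3 restrain activated T cells, and PDL1 on a partner cell engages PD1.

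There were 4 arms. The combination arm received the anti-PD1 antibody MK3475 together with the anti-LAG3 antibody MK4280, the anti-PD1 arm received anti-PD1 with an isotype antibody, the anti-LAG3 arm received anti-LAG3 with an isotype antibody, and the isotype arm received isotype antibody in both positions. Each arm was sampled at 0.01, 0.1 and 1 µg/ml of each of its antibodies, with 1 library for each of the 12 conditions. These doses are those of the sample labels, while the treatment protocol describes a dilution series that starts at 10 µg/ml. All 12 cultures, isotype included, held Raji cells loaded with SED at 100 ng/ml and were collected after 24 h. The wells of a condition were pooled before RNA extraction, and both lines were kept under drug selection. The 3 libraries of an arm are its 3 doses, not repeats of 1 condition, so a p-value here reflects only how these libraries scatter, and that scatter may be technical.

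Cytokines bind receptor chains that carry JAK kinases. The kinases phosphorylate STAT proteins, which pair, enter the nucleus and bind DNA. SOCS1, SOCS3 and CISH are themselves induced by STATs and block the receptors or kinases, closing a negative feedback loop. In T cells STAT4 is known for signalling from the interleukin-12 receptor, STAT5A and STAT5B for signalling from the interleukin-2 receptor, and STAT6 for signalling from the interleukin-4 receptor.

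Total counts per library ranged from 23593973 to 36581754. Both lines are in every library, so the line a member's reads came from was not measured, and fewer cells of a line and less RNA per cell cannot be told apart. All 24 T cell markers and all 25 B cell markers on the lists for the 2 lines were counted in every library, with none at 0. The summed T marker level was 1918 to 2158 CPM (counts scaled to one library total) in combination libraries, 1835 to 2089 CPM in anti-PD1 libraries, 1988 to 2111 CPM in anti-LAG3 libraries and 1790 to 1917 CPM in isotype libraries. The summed B marker level was 10172 to 10538 CPM in combination libraries, 9922 to 10305 CPM in anti-PD1 libraries, 9600 to 9921 CPM in anti-LAG3 libraries and 9695 to 10643 CPM in isotype libraries. The mean log2 CPM of T markers minus that of B markers was −1.96 ± 0.05 in the combination arm, −2.00 ± 0.09 in the anti-PD1 arm, −1.83 ± 0.03 in the anti-LAG3 arm and −2.02 ± 0.03 in the isotype arm (SD, n = 3 each), so the anti-LAG3 libraries leaned towards T cell RNA.

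STATs read DNA as paired proteins, and the core letters most of them bind are TTCNNNGAA, while STAT6 also binds TTCNNNNGAA. The 250 bases upstream of the CISH start site are shown because they hold 4 copies of TTCNNNGAA, in capitals, and CISH is a known STAT5 target. The 250 bases upstream of both STAT4 start sites are shown beside them because STAT4 was the member whose level varied most between arms, and they hold neither motif. All are on the minus strand of GRCh38.p14, from RefSeq, and are written 5′ to 3′.
CISH, chr3:50611775-50612024: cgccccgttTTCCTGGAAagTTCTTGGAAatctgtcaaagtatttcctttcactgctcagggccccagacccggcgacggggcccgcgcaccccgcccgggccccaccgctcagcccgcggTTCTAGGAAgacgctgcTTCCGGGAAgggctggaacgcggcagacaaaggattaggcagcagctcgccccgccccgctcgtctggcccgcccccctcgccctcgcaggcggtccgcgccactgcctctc
STAT4 first start site, chr2:191151597-191151846: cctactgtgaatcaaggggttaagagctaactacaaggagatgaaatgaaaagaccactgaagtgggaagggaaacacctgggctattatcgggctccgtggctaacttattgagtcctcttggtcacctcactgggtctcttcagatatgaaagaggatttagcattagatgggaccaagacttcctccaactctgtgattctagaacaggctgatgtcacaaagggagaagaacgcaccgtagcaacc
STAT4 second start site, chr2:191150995-191151244: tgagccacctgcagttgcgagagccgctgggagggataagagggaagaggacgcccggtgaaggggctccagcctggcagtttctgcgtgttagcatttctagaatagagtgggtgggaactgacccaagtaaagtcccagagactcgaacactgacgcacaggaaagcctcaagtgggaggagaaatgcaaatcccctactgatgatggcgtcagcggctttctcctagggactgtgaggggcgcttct
The 4 CISH matches, TTCCTGGAA, TTCTTGGAA, TTCTAGGAA and TTCCGGGAA, begin at −241, −230, −129 and −112 relative to the start site. Both motifs read the same on either strand, and a match to one cannot be a match to the other at the same place because their spacers differ. Of 35116 RefSeq promoter windows of 300 bases, 7.657% hold at least 1 TTCNNNGAA and 0.0199%, or 7 windows, hold 4 or more. TTCNNNNGAA is in 6.439% of windows. RefSeq promoter windows were found for all 9 members. Apart from CISH the only match in them was 1 TTCNNNNGAA, TTCCTCTGAA, at −229 relative to 1 of the 3 STAT5A start sites. The windows of SOCS3, STAT5B and STAT6 do not cover the outermost start of the gene in the GENCODE locations given below. The bases upstream of those starts were not searched. A match describes the letters of a window and was not tested as a binding site.

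The members lie on 5 chromosomes in the GENCODE annotation of GRCh38. STAT5B (chr17:42199168-42276707), STAT5A (chr17:42287547-42311943) and STAT3 (chr17:42313324-42388568) are neighbours, and SOCS3 is on the same chromosome (chr17:78356778-78360077). STAT2 (chr12:56341597-56360155) and STAT6 (chr12:57095408-57132139) share chromosome 12. STAT4 is at chr2:191029576-191151596, CISH at chr3:50606490-50611831 and SOCS1 at chr16:11254405-11256200. All are protein coding genes, and their counts are reads over annotated features of the whole gene. STAT5A and STAT5B are close copies, and how the authors' counting treated reads that map to both is not given in the sources used here, so the split between them is uncertain.

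The members covered about 2 orders of magnitude in level per length. STAT6, a mediator of interleukin-4 and interleukin-13 signals, was the highest at a mean of 98.6 TPM (counts scaled for gene length and library total) over the 12 libraries, with a range of 92.4 to 104 TPM. SOCS1, which inhibits JAK kinases directly, followed at 57.3 TPM (50.3 to 64.6 TPM). STAT5B averaged 46.7 TPM (42.2 to 48.6 TPM), STAT3 28.8 TPM (26.4 to 34.0 TPM) and STAT2 10.8 TPM (9.65 to 12.9 TPM). The ranges of these 5 genes did not overlap one another, so their order was the same in all 12 libraries. The other 4 were far lower. STAT5A averaged 2.38 TPM (1.60 to 3.61 TPM), SOCS3 1.55 TPM (0.851 to 2.12 TPM), STAT4 1.05 TPM (0.534 to 2.35 TPM) and CISH 0.995 TPM (0.659 to 1.44 TPM). In every library STAT5A was the highest of these 4, and its range did not overlap that of CISH. The order of SOCS3, STAT4 and CISH depended on the library. Counts per library were 5007 to 7440 for STAT6, 71 to 165 for STAT5A and 16 to 76 for STAT4, and the counting error of the low genes is correspondingly wide.

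**Figure D1:**
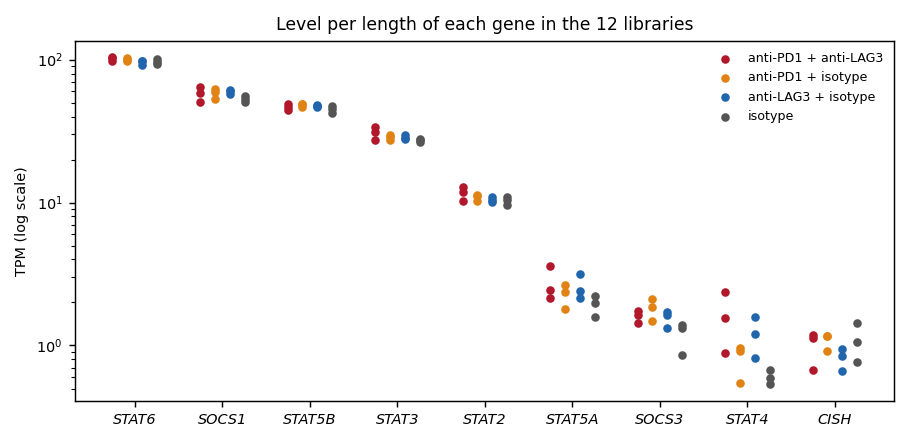
Level per length of each gene (TPM, log axis) in each of the 12 libraries, coloured by arm, with genes ordered by their mean. STAT6, SOCS1, STAT5B, STAT3 and STAT2 keep their order in every library, while SOCS3, STAT4 and CISH overlap between 0.534 and 2.35 TPM.

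The first question was whether any member differed between an antibody arm and the isotype arm over the 3 doses. STAT4 was higher in the anti-LAG3 arm by 1.01 ± 0.29 on the log2 scale (SE), and this was the only member to pass the threshold in any of the 10 comparisons made (adjusted p = 0.0295, edgeR quasi-likelihood test with Benjamini-Hochberg adjustment over all 15535 genes). STAT4 had the larger difference in the combination arm, 1.40 ± 0.28, which did not pass (adjusted p = 0.102). In that comparison 0 of 9 members and 0.00644% of all genes tested, 1 gene, were called. An unadjusted p under 0.05 was seen for 4 of 9 members and 1037 of the 15535 genes tested. DESeq2 called 0 members there too. In anti-PD1 against isotype 0 of 9 members and 3.82% of all genes were called. An unadjusted p under 0.05 held for 1 of 9 members and 2856 of the 15535 genes tested. In anti-LAG3 against isotype 1 of 9 members was called, against 10.0% of all genes in either direction and 4.88% higher. The share of members called was therefore close to the background in the anti-PD1 and anti-LAG3 comparisons. In the combination comparison, with 1 gene called of all tested, 0 of 9 cannot show whether the members differ from the background. The background itself rested on single libraries. With 1 library left out the genes called over the whole table numbered 0 to 271 in combination against isotype, 0 to 1044 in anti-PD1 against isotype and 424 to 2045 in anti-LAG3 against isotype. The lowest counts came without the combination library at 1 µg/ml, without the isotype library at 0.1 µg/ml or the anti-PD1 library at 0.01 µg/ml, and without the isotype library at 0.1 µg/ml, and the highest without the combination library at 0.01 µg/ml in the first and the isotype library at 1 µg/ml in the others. The 3 comparisons share the isotype libraries and are not independent of each other.

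The median difference of the 9 members from isotype was 0.17 in the combination arm, 0.08 in the anti-PD1 arm and 0.06 in the anti-LAG3 arm, against medians of −0.003, −0.005 and −0.001 for all genes tested. The difference was above 0 for 8 of 9 members in the combination arm, for 8 in the anti-PD1 arm and for 7 in the anti-LAG3 arm. In the combination arm 3 members, STAT3, STAT4 and SOCS3, had all their libraries above all isotype libraries, as did 4.36% of all genes. In the anti-PD1 arm this held for SOCS3 (11.4% of all genes), and in the anti-LAG3 arm for STAT3 and STAT4 (15.4% of all genes). No member had all its libraries below isotype, which held for 3.81% of all genes in the combination arm, 10.4% in the anti-PD1 arm and 12.8% in the anti-LAG3 arm.

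**Figure D2:**
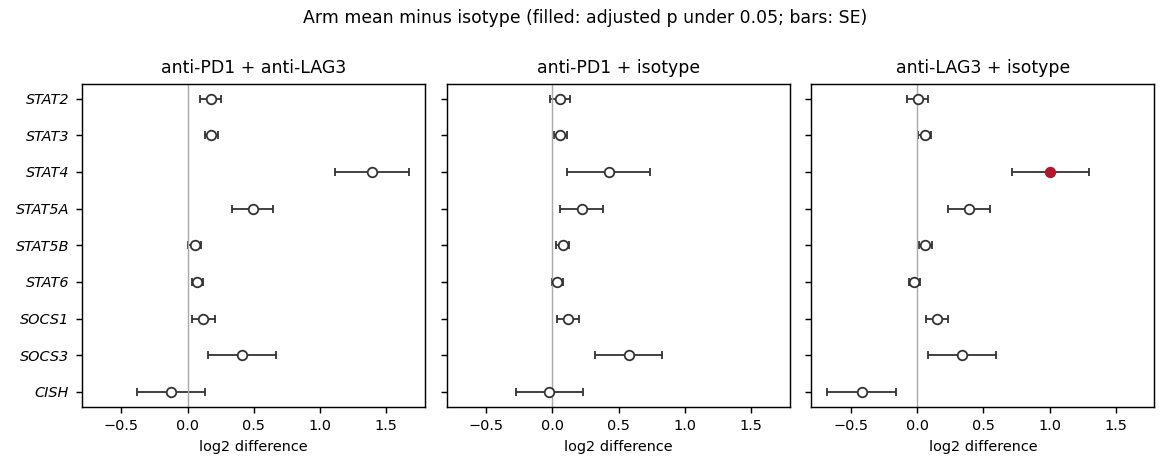
Difference of each antibody arm from the isotype arm for the 9 genes (log2, mean over 3 doses, bars are SE, 1 panel per arm, with a filled point where the adjusted p is under 0.05). STAT4 lies at 1.40 in the combination arm, 0.43 in the anti-PD1 arm and 1.01 in the anti-LAG3 arm, and the last is the only filled point.

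STAT4 is taken first among the factors. It had 1.11, 1.93 and 2.94 CPM in the combination libraries at 0.01, 0.1 and 1 µg/ml. It had 0.678, 1.19 and 1.13 CPM in the anti-PD1 libraries and 1.49, 1.03 and 1.93 CPM in the anti-LAG3 libraries at the same doses. The isotype libraries had 0.732, 0.832 and 0.683 CPM. Every combination and anti-LAG3 library was above the highest isotype library, while the anti-PD1 libraries overlapped isotype. These levels rest on 32, 52 and 76 reads in the combination libraries and 20, 22 and 25 reads in the isotype libraries. At 1 µg/ml the combination library was 4.31-fold above the isotype library, with a 95% interval of 2.71 to 7.07 that covers counting error only. The anti-LAG3 library was 2.82-fold above isotype at that dose (1.74 to 4.69), and the anti-PD1 library 1.65-fold (0.948 to 2.91).

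The STAT4 difference between the combination arm and the anti-PD1 arm was 0.97 ± 0.27 (adjusted p = 0.0979), and that between the combination arm and the anti-LAG3 arm was 0.39 ± 0.25 (adjusted p = 0.393). In combination against anti-PD1, 0 of 9 members and 0.354% of all genes were called, and in combination against anti-LAG3, 0 of 9 members and 5.75% of all genes. The number of members with an unadjusted p under 0.05 was 2 in the first and 3 in the second, against 2176 and 3338 of the 15535 genes tested.

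The STAT4 calls moved with the processing and with single libraries. The anti-LAG3 call ended when the balance of T and B markers was added to the model (1.40 ± 0.59, adjusted p = 0.293), when trends with gene length were removed (1.09 ± 0.30, adjusted p = 0.0860) and without the dose term (1.01 ± 0.33, adjusted p = 0.0611). It also ended without any 1 of the isotype libraries at 1 or 0.1 µg/ml or the anti-LAG3 libraries at 1 or 0.01 µg/ml, where the difference was 0.69 to 1.12 and the adjusted p 0.0781 to 0.174. The combination difference from isotype passed instead without the filter on low counts (1.39 ± 0.26, adjusted p = 7.02e-05), with the length correction (1.55 ± 0.29, adjusted p = 5.93e-05), and without the isotype library or the combination library at 0.01 µg/ml (1.56 to 1.64, adjusted p 0.00152 to 0.0153). The combination difference from anti-PD1 passed without the filter (adjusted p = 0.0202) and without the isotype library at 1 µg/ml or the combination library at 0.01 µg/ml (0.97 to 1.20, adjusted p 0.0291 to 0.0453). The direction was higher in every one of these fits. The length correction also moved the median of all genes. That median went from −0.003 to 0.14 in combination against isotype and from −0.001 to 0.12 in anti-LAG3 against isotype.

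The authors' deposited tables, which compare each antibody library with all 3 isotype libraries at once, list STAT4 at a log2 fold change of 2.00 ± 0.52 (SE) with an adjusted p of 0.00912 for the combination at 1 µg/ml. In the same deposited tables STAT4 has 1.36 ± 0.57 for the combination at 0.1 µg/ml and 0.58 ± 0.64 at 0.01 µg/ml. For anti-LAG3 it has 1.37 ± 0.56, 0.47 ± 0.66 and 0.99 ± 0.61 at 1, 0.1 and 0.01 µg/ml. The authors give STAT4 no adjusted p in any anti-LAG3 library, nor in the anti-PD1 libraries at 1 and 0.01 µg/ml. Other members also lack one in some libraries. STAT4 and STAT3 were the members with an adjusted p under 0.05 in the authors' deposited tables, both in the combination at 1 µg/ml only, a table in which 250 of 15003 genes were under that value.

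The dose dependence was the second question. In the combination arm STAT4 was higher at each higher dose, and its slope was 0.70 ± 0.19 on the log2 scale per 10-fold increase in dose when tested against 0 (adjusted p = 0.0372). Set against the isotype slope, which is the comparison that removes any drift shared with the isotype arm, the slope was 0.73 ± 0.32 and did not pass (adjusted p = 0.216). The STAT4 slope minus the isotype slope was 0.35 ± 0.35 in the anti-PD1 arm and 0.25 ± 0.32 in the anti-LAG3 arm (adjusted p = 0.792 and 0.906). No member passed in any of the 5 comparisons of slopes. All genes tested were called at 4.63% in combination against isotype, 0.264% in anti-PD1 against isotype, 0.0708% in anti-LAG3 against isotype, 0.644% in combination against anti-PD1 and 0.766% in combination against anti-LAG3. Members with an unadjusted p under 0.05 numbered 4, 1, 0, 3 and 2 in the same order, against 2766, 1725, 1242, 1550 and 1631 of all genes tested.

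**Figure D3:**
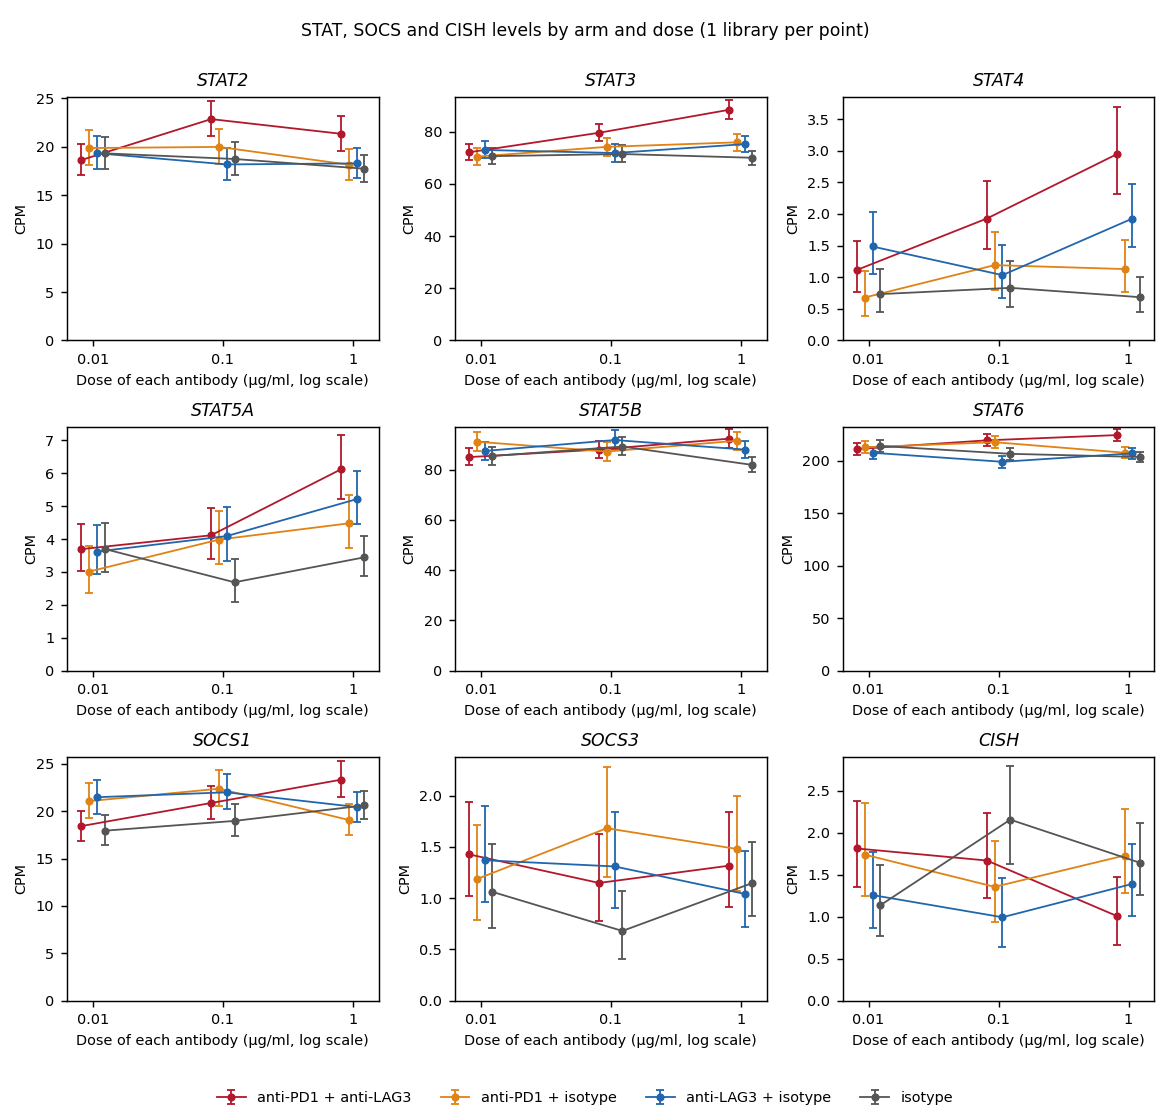
Level of each gene (CPM) against the dose of each antibody (µg/ml, log axis) in the 4 arms, with 1 library per point and 95% Poisson intervals for counting error. STAT4 reaches 2.94 CPM and STAT3 88.4 CPM in the combination at 1 µg/ml, above every other library, while STAT5B and STAT6 are nearly level.

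STAT3, which carries signals from interleukin-6, interleukin-10 and interleukin-21 receptors, had the same order of doses in the combination arm. Its level was 72.1, 79.6 and 88.4 CPM in the combination libraries from low to high dose. It was 70.4, 74.2 and 75.9 CPM in the anti-PD1 libraries and 73.0, 71.8 and 75.2 CPM in the anti-LAG3 libraries. The isotype libraries had 70.6, 71.4 and 70.0 CPM. The isotype libraries were close to each other, and all combination and anti-LAG3 libraries lay above them, the lowest of them narrowly. The combination difference from isotype was 0.18 ± 0.05 on the log2 scale (adjusted p = 0.260). Without the combination library at 0.01 µg/ml it was 0.24 and passed (adjusted p = 0.0134). The STAT3 slope in the combination arm was 0.16 ± 0.04 per 10-fold dose against 0 (adjusted p = 0.00869) and 0.14 ± 0.05 against the isotype slope (adjusted p = 0.121). The authors' deposited table lists STAT3 at 0.34 ± 0.10 with an adjusted p of 0.0369 for the combination at 1 µg/ml. The differences of STAT3 from isotype in the anti-PD1 arm (0.06 ± 0.05) and in the anti-LAG3 arm (0.06 ± 0.05) were about the size of their errors.

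STAT5A, which carries interleukin-2 family signals, had 3.69, 4.11 and 6.12 CPM in the combination libraries from low to high dose. It had 3.01, 3.98 and 4.48 CPM in the anti-PD1 libraries and 3.62, 4.09 and 5.21 CPM in the anti-LAG3 libraries. The isotype libraries had 3.70, 2.68 and 3.44 CPM. All 3 antibody arms were highest at 1 µg/ml, and at that dose each lay above every isotype library, but each arm overlapped isotype at lower doses. The arm difference from isotype was 0.49 ± 0.16 for the combination (adjusted p = 0.393), 0.22 ± 0.16 for anti-PD1 (adjusted p = 0.497) and 0.39 ± 0.16 for anti-LAG3 (adjusted p = 0.118). Without the isotype library at 0.01 µg/ml the combination difference was 0.72 (adjusted p = 0.0443) and the anti-LAG3 difference 0.62 (adjusted p = 0.0270), and both passed. The slope minus the isotype slope was 0.40 ± 0.17 for the combination, 0.29 ± 0.18 for anti-PD1 and 0.29 ± 0.17 for anti-LAG3, and none passed (adjusted p = 0.215, 0.597 and 0.715).

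STAT5B, the close copy of STAT5A, was nearly level. It had 85.0, 88.0 and 92.3 CPM in the combination libraries, 91.1, 87.2 and 91.5 CPM in the anti-PD1 libraries, 87.4, 91.8 and 88.0 CPM in the anti-LAG3 libraries and 85.4, 89.2 and 81.8 CPM in the isotype libraries, from low to high dose. Every antibody arm overlapped isotype. Its arm differences from isotype were 0.05 ± 0.05 for the combination, 0.08 ± 0.05 for anti-PD1 and 0.06 ± 0.05 for anti-LAG3 (adjusted p = 0.941, 0.406 and 0.468).

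STAT2, which pairs with other factors in the response to type I interferon, had 18.6, 22.9 and 21.3 CPM in the combination libraries from low to high dose. The anti-PD1 libraries had 19.9, 20.0 and 18.2 CPM, the anti-LAG3 libraries 19.3, 18.2 and 18.3 CPM and the isotype libraries 19.3, 18.7 and 17.7 CPM. The combination libraries at 0.1 and 1 µg/ml were the highest of the 12, and the combination library at 0.01 µg/ml lay among the others. The combination difference was 0.17 ± 0.08 from isotype (adjusted p = 0.673) and 0.17 ± 0.08 from anti-LAG3 (adjusted p = 0.198). The second passed without the combination library at 0.01 µg/ml (0.27, adjusted p = 0.0279), as did the STAT3 difference between the same arms (0.19, adjusted p = 0.0334), against 0.13 ± 0.05 with all libraries.

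STAT6 had 211, 219 and 224 CPM in the combination libraries, 213, 217 and 207 CPM in the anti-PD1 libraries, 207, 199 and 207 CPM in the anti-LAG3 libraries and 214, 206 and 203 CPM in the isotype libraries, from low to high dose. All combination libraries lay above all anti-LAG3 libraries, as did 12.1% of all genes, and STAT6 was the only member for which this held. The STAT6 difference between those arms was 0.10 ± 0.04 (adjusted p = 0.183), and its difference between the combination and isotype was 0.07 ± 0.04 (adjusted p = 0.824). The last exon of STAT6 shares 69 bases with NAB2 on the other strand, and NAB2 was called for its combination slope against isotype (0.53 ± 0.08, adjusted p = 1.37e-04). The strand setting of the authors' counting is not given in the sources used here, and NAB2 was counted at 14.8 to 28.5 CPM, far below STAT6.

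SOCS1, the first of the feedback inhibitors, had 18.4, 20.9 and 23.3 CPM in the combination libraries from low to high dose. It had 21.1, 22.4 and 19.1 CPM in the anti-PD1 libraries and 21.5, 22.0 and 20.4 CPM in the anti-LAG3 libraries. The isotype libraries had 17.9, 19.0 and 20.6 CPM. The combination and isotype libraries were both higher at each higher dose, while both single-antibody arms were lowest at 1 µg/ml. The arm differences of SOCS1 from isotype were 0.12 ± 0.08 for the combination, 0.12 ± 0.09 for anti-PD1 and 0.15 ± 0.08 for anti-LAG3, and none passed (adjusted p = 0.907, 0.492 and 0.287). The combination slope exceeded the anti-PD1 slope by 0.26 ± 0.08 (adjusted p = 0.199) and the anti-LAG3 slope by 0.21 ± 0.08 (adjusted p = 0.323), while it differed from the isotype slope by 0.05 ± 0.08 (adjusted p = 0.794).

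SOCS3, which blocks receptors of the interleukin-6 family, was counted by 18 to 42 reads per library. It had 1.43, 1.15 and 1.32 CPM in the combination libraries and 1.19, 1.68 and 1.48 CPM in the anti-PD1 libraries, from low to high dose. The anti-LAG3 libraries had 1.37, 1.31 and 1.04 CPM and the isotype libraries 1.06, 0.680 and 1.15 CPM. All combination and anti-PD1 libraries lay above all isotype libraries, the lowest combination library only narrowly, at 1.149 CPM against 1.148 CPM, and no arm showed a steady order of doses apart from the anti-LAG3 arm, where the level was lower at each higher dose. The difference from isotype was 0.41 ± 0.26 for the combination, 0.58 ± 0.26 for anti-PD1 and 0.34 ± 0.26 for anti-LAG3 (adjusted p = 0.880, 0.221 and 0.454). The isotype library at 0.1 µg/ml, with 18 reads, was the lowest of the 12.

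CISH, which blocks STAT5 docking at cytokine receptors and carries the 4 motif copies printed above, was the member whose combination level was lower at each higher dose. It had 1.81, 1.67 and 1.01 CPM in the combination libraries from low to high dose. It had 1.74, 1.35 and 1.73 CPM in the anti-PD1 libraries, 1.26, 0.993 and 1.39 CPM in the anti-LAG3 libraries and 1.13, 2.15 and 1.64 CPM in the isotype libraries. The isotype libraries spanned nearly the whole range, so every arm overlapped them. At 1 µg/ml the combination library was at 0.614 of the isotype library, with a counting interval of 0.372 to 0.988. The combination slope minus the isotype slope was −0.63 ± 0.29 (adjusted p = 0.249), and against 0 it was −0.39 ± 0.21 (adjusted p = 0.396). The arm differences from isotype were −0.12 ± 0.26 for the combination, −0.02 ± 0.26 for anti-PD1 and −0.42 ± 0.26 for anti-LAG3 (adjusted p = 0.993, 0.977 and 0.345). CISH shares 218 exon bases with MAPKAPK3 on the other strand, and MAPKAPK3 had a called combination slope against isotype of −0.22 ± 0.06 (adjusted p = 0.0215), with 76.6, 71.3 and 63.3 CPM in the combination libraries and 72.0, 73.6 and 78.6 CPM in the isotype libraries from low to high dose. MAPKAPK3 was counted far above CISH, and its part in the CISH counts was not tested.

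At 1 µg/ml, with 1 library on each side and so no test, STAT4 and STAT5A were past 1.5-fold higher in the combination than in isotype (4.31-fold and 1.78-fold) and CISH past 1.5-fold lower, while 6.55% of all genes were past that fold higher and 6.32% lower. The other 6 members lay between 1.10-fold and 1.26-fold, all above the median of 1.01 for all genes. At 0.01 µg/ml the combination stood at 1.52-fold for STAT4 and 1.60-fold for CISH, with 3.96% of all genes past 1.5-fold higher, and the other 7 members lay between 0.964-fold and 1.35-fold.

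**Figure D4:**
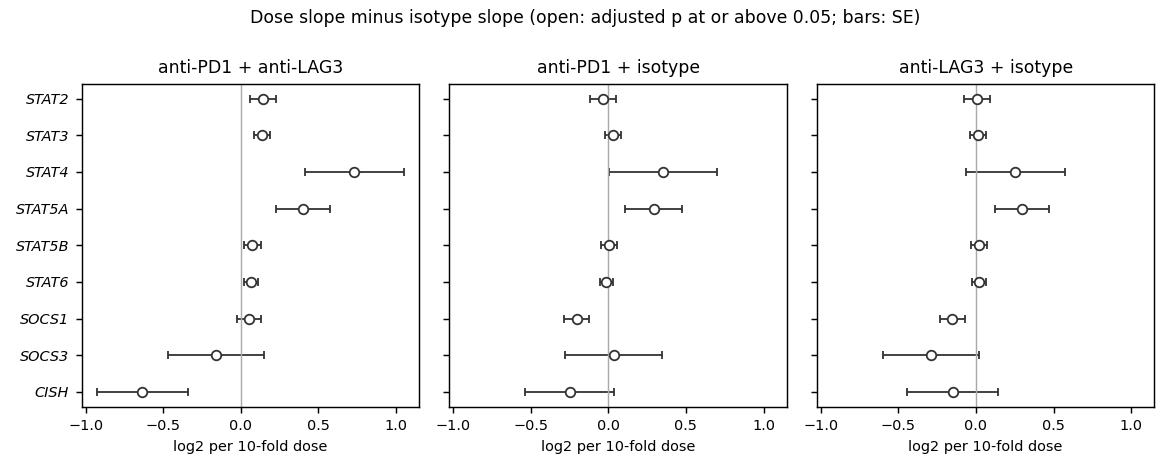
Dose slope of each antibody arm minus the isotype slope for the 9 genes (log2 per 10-fold dose, bars are SE, 1 panel per arm, open points where the adjusted p is 0.05 or more). In the combination arm STAT4 lies at 0.73 and CISH at −0.63, and no point is filled in any arm.

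The genes whose log2 CPM followed a member most closely over the 12 libraries are given as a description, since libraries share cells, medium and dose. For STAT4 they included ACTN1 (r = 0.928) and KDM5B (r = 0.902) among 10122 genes of at least 5 CPM on average. ACTN1, a crosslinker of actin filaments, had 23.4, 26.2 and 33.3 CPM in the combination libraries and 21.9, 20.9 and 20.4 CPM in the isotype libraries from low to high dose, the same order as STAT4 in the combination arm. For SOCS1 they were RDH10 (r = 0.890), SPIB (r = 0.889), which is also on the B marker list, and EBI3 (r = 0.873). For SOCS3 they were REC8 (r = 0.854), MFSD13A (r = 0.854) and USF2 (r = 0.832), and for CISH POLR3C (r = 0.853), KLHL23 (r = 0.832) and EFCAB7 (r = 0.807).

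The other genes of the pathway are given in the order of signalling. Their lists were also chosen with earlier results of these data known, so the called shares are a description. Of 21 cytokine receptor chains 17 were tested, the low counts of IL6R, IL12RB2, IL13RA1 and IL23R leaving them out. IL2RA, which makes the interleukin-2 receptor high in affinity and is itself a STAT5 target, had 1.32, 2.26 and 8.56 CPM in the combination libraries from low to high dose. It had 1.36, 2.13 and 2.57 CPM in the anti-PD1 libraries, 1.33, 1.71 and 2.65 CPM in the anti-LAG3 libraries and 1.57, 1.70 and 1.26 CPM in the isotype libraries. The combination at 1 µg/ml stood apart from the other 11 libraries. Its slope rose by 1.58 ± 0.24 per 10-fold dose relative to isotype (adjusted p = 2.01e-04). This did not hold without the isotype library or the combination library at 1 µg/ml (0.91 to 1.35, adjusted p 0.304 to 0.379).

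IFNAR2, a chain of the type I interferon receptor that binds STAT2, had 38.7, 45.0 and 57.2 CPM in the combination libraries, 38.0, 39.9 and 41.9 CPM in the anti-PD1 libraries, 42.0, 39.3 and 42.5 CPM in the anti-LAG3 libraries and 41.2, 39.3 and 38.5 CPM in the isotype libraries from low to high dose. Its combination slope rose relative to isotype by 0.32 ± 0.06 (adjusted p = 0.00238) and relative to the anti-LAG3 slope by 0.27 ± 0.06 (adjusted p = 0.0296). In the second comparison 0.766% of all genes were called. Relative to the anti-PD1 slope it was not called (0.23 ± 0.06, adjusted p = 0.106). The first call ended without any 1 of the isotype or combination libraries at 1 or 0.01 µg/ml (0.24 to 0.39, adjusted p 0.0689 to 0.280), and the second without any 1 of the anti-LAG3 or combination libraries at those doses (0.18 to 0.36, adjusted p 0.294 to 0.989). The second also ended in DESeq2 (adjusted p = 0.194), with the length correction (0.49 ± 0.15, adjusted p = 0.233) and with the GC and length correction (0.50 ± 0.15, adjusted p = 0.175). With the GC and length correction the first moved to 0.59. The median of all genes under that correction was 0.28 for the first slope difference and 0.22 for the second. IL9R rose in the anti-LAG3 arm relative to isotype (0.30 ± 0.10, adjusted p = 0.0474), the only other receptor call. Its uncalled difference from isotype was 0.42 ± 0.10 in the combination arm (adjusted p = 0.146) and 0.30 ± 0.10 in the anti-PD1 arm (adjusted p = 0.0892). A difference of this size was therefore not particular to anti-LAG3. At 1 µg/ml IL9R had 24.0 CPM in the combination, 20.3 in anti-PD1, 17.1 in anti-LAG3 and 15.0 in isotype. In anti-LAG3 against isotype 1 of 17 receptors and 10.0% of all genes were called. The IL9R call ended without any 1 of 9 libraries (0.23 to 0.34, adjusted p 0.0580 to 0.233). Among them were all isotype and all anti-PD1 libraries, the anti-LAG3 libraries at 0.1 and 0.01 µg/ml and the combination library at 0.1 µg/ml. The IL9R call also ended with the marker balance in the model (0.26 ± 0.20, adjusted p = 0.617), with the length correction (adjusted p = 0.307), with the GC and length correction (adjusted p = 0.464), without the dose term (adjusted p = 0.411), in DESeq2 (adjusted p = 0.0542) and with DESeq2 size factors in edgeR (adjusted p = 0.0508). Over the 17 receptors the median combination slope relative to isotype was 0.12, against 0.01 for all genes, with 2 called higher and none lower, against 1.83% of all genes higher and 2.80% lower.

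**Figure D5:**
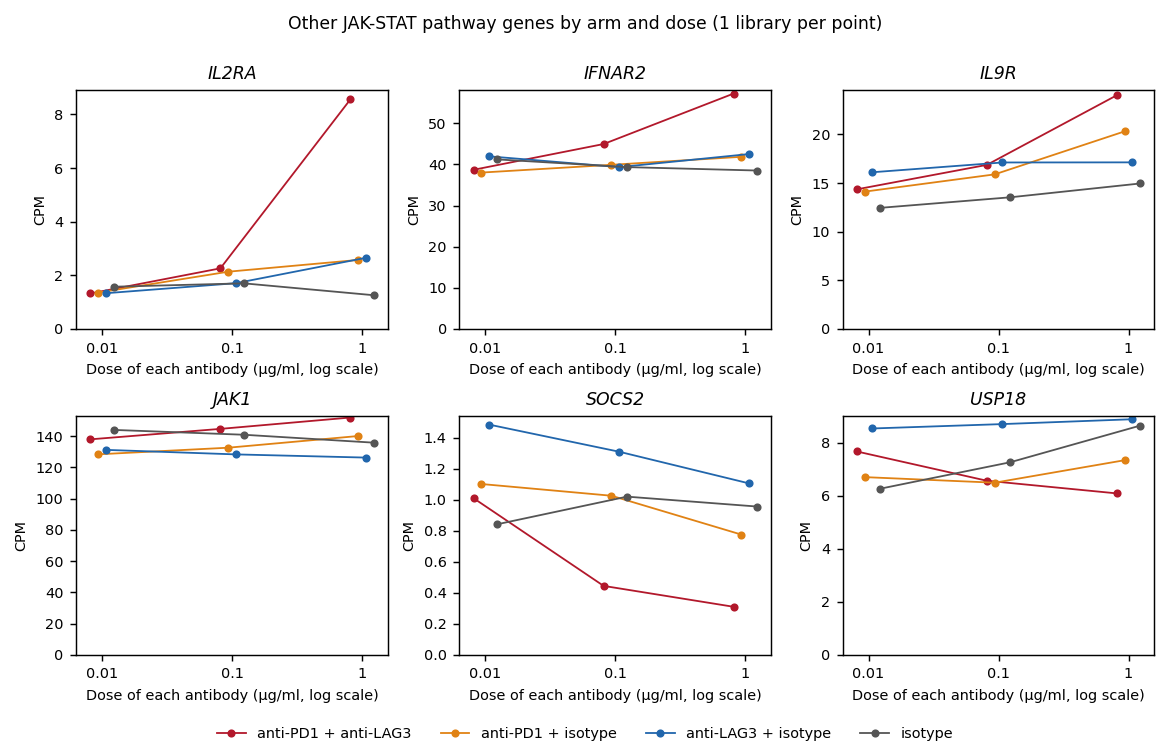
Level (CPM) of 6 other genes of the pathway against the dose of each antibody (µg/ml, log axis) in the 4 arms, with 1 library per point. IL2RA and IFNAR2 reach 8.56 and 57.2 CPM in the combination at 1 µg/ml, and SOCS2 is lowest there at 0.310 CPM.

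Of the 4 JAK kinases, all tested, only JAK1 passed in any comparison, and it did so in combination against anti-LAG3, where 5.75% of all genes were called. JAK1 was higher in the combination than in anti-LAG3 by 0.17 ± 0.05 (adjusted p = 0.0273). It had 138, 145 and 152 CPM in the combination libraries and 131, 128 and 126 CPM in the anti-LAG3 libraries from low to high dose. The isotype libraries had 144, 141 and 136 CPM. From isotype the uncalled difference was 0.05 ± 0.05 for the combination (adjusted p = 0.937) and −0.12 ± 0.05 for anti-LAG3 (adjusted p = 0.0890). The call ended without any 1 of the isotype library at 0.1 µg/ml or the combination or anti-LAG3 libraries at 1 or 0.1 µg/ml (0.14 to 0.18, adjusted p 0.0545 to 0.193). It also ended with the marker balance in the model (0.20 ± 0.07, adjusted p = 0.204) and with the length correction (adjusted p = 0.996).

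Of 15 other inhibitors of the pathway, all tested, SOCS2 and USP18 passed, both downward. That is 1 of 15 in combination against anti-LAG3, where 5.75% of all genes were called, and 1 of 15 for the combination slope against isotype, where 4.63% were called. SOCS2, a relative of CISH that restrains growth hormone and STAT5 signalling, fell in the combination relative to anti-LAG3 by 1.14 ± 0.31 on the log2 scale (adjusted p = 0.0321). It had 1.01, 0.445 and 0.310 CPM in the combination libraries and 1.49, 1.31 and 1.11 CPM in the anti-LAG3 libraries from low to high dose, on 8 to 39 reads, against 0.842, 1.02 and 0.957 CPM in the isotype libraries. All combination libraries lay below all anti-LAG3 libraries, as for 13.2% of all genes. The call ended without any 1 of the anti-LAG3 libraries or the combination libraries at 1 or 0.1 µg/ml (−1.20 to −0.90, adjusted p 0.0682 to 0.195), with the marker balance in the model (−0.99 ± 0.46, adjusted p = 0.343), with the length correction (adjusted p = 0.0901) and without the dose term (adjusted p = 0.0513). USP18, an interferon-induced inhibitor of the type I interferon receptor, had 7.66, 6.56 and 6.08 CPM in the combination libraries and 6.26, 7.26 and 8.64 CPM in the isotype libraries from low to high dose. Its combination slope fell relative to isotype by 0.42 ± 0.12 (adjusted p = 0.0448). That call ended without any 1 of the combination, anti-LAG3 or isotype libraries (−0.48 to −0.35, adjusted p 0.0538 to 0.883), in DESeq2 (adjusted p = 0.330), with the length correction (−0.12 ± 0.20, adjusted p = 0.660) and with the GC and length correction (−0.11 ± 0.20, adjusted p = 0.669). Either correction moved the median of all genes for the combination slope against isotype from 0.006 to 0.28. The USP18 combination slope against 0 was −0.16 ± 0.09 (adjusted p = 0.401).

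Of 23 known STAT target genes 21 were tested, LIF and FOXP3 being too low. Of these, 3 of 21 were called in anti-LAG3 against isotype (10.0% of all genes) and 3 in combination against anti-LAG3 (5.75%). In anti-PD1 against isotype 1 was called (3.82%), and 1 for the combination slope against isotype (4.63%). TNFRSF8, which encodes CD30, had 16.8, 15.3 and 9.30 CPM in the combination libraries and 17.5, 16.1 and 18.5 CPM in the isotype libraries from low to high dose. Its combination slope fell relative to isotype by 0.47 ± 0.10 (adjusted p = 0.00739). This did not hold without the isotype or combination library at 1 µg/ml (−0.28 to −0.20, adjusted p 0.594 to 0.895). Nor did it hold with the length correction (−0.19 ± 0.17, adjusted p = 0.397). Under that correction the median of all genes for this slope was 0.28, against 0.006 without it. JUNB, a subunit of the AP-1 factor, rose relative to isotype in the anti-PD1 arm (0.19 ± 0.05, adjusted p = 0.0291) and in the anti-LAG3 arm (0.16 ± 0.05, adjusted p = 0.0338), and PIM3, a survival kinase, rose in the anti-LAG3 arm (0.16 ± 0.05, adjusted p = 0.0338). BCL6, a repressor of germinal centre B cells, fell in the anti-LAG3 arm relative to isotype (−0.16 ± 0.05, adjusted p = 0.0356) and rose in the combination relative to anti-LAG3 (0.20 ± 0.05, adjusted p = 0.0207).

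CCL22, a chemokine, was higher in the combination than in anti-LAG3 (0.22 ± 0.06, adjusted p = 0.0430), and CCND2, cyclin D2, was lower (−0.83 ± 0.24, adjusted p = 0.0466). CCL22 differed from isotype by 0.09 ± 0.06 in the combination (adjusted p = 0.904) and by −0.13 ± 0.06 in anti-LAG3 (adjusted p = 0.214). CCND2 differed from isotype by −0.61 ± 0.25 in the combination (adjusted p = 0.640) and by 0.22 ± 0.22 in anti-LAG3 (adjusted p = 0.603). None of these differences from isotype was called. CCND2 had 1.01, 0.704 and 0.814 CPM in the combination libraries and 1.45, 1.59 and 1.48 CPM in the anti-LAG3 libraries from low to high dose. Those libraries held 19 to 47 CCND2 reads. Each of these 7 calls on JUNB, PIM3, BCL6, CCL22 and CCND2 ended with the length correction and with the GC and length correction. Under the length correction the BCL6 difference from isotype was −0.04 ± 0.13 and the JUNB difference in the anti-PD1 arm 0.39 ± 0.13. The median of all genes under it was 0.12 in anti-LAG3 against isotype and 0.24 in anti-PD1 against isotype. Without it those medians were −0.001 and −0.005. With the marker balance in the model the differences from isotype in the anti-LAG3 arm were 0.25 ± 0.10 for JUNB, 0.24 ± 0.10 for PIM3 and −0.15 ± 0.10 for BCL6. In combination against anti-LAG3 they were 0.19 ± 0.08 for BCL6, 0.16 ± 0.10 for CCL22 and −0.48 ± 0.35 for CCND2. The errors were wider than without the balance. The CCL22 call ended also with no filter (adjusted p = 0.0747), in DESeq2 (adjusted p = 0.0676) and without the dose term (adjusted p = 0.0950). The balance itself was higher in the anti-LAG3 arm than in the others, so a fit with it cannot separate the balance from that antibody. Each of these 7 calls also ended with the marker balance in the model, except that of JUNB in the anti-PD1 arm. Each ended without any 1 of 4 to 8 libraries, with differences of 0.16 to 0.19 and 0.14 to 0.18 for JUNB in the anti-PD1 and anti-LAG3 arms, 0.12 to 0.17 for PIM3, −0.17 to −0.10 and 0.17 to 0.21 for BCL6, 0.17 to 0.25 for CCL22 and −0.91 to −0.69 for CCND2 in those fits (adjusted p 0.0521 to 0.238 over all of them). For JUNB in the anti-PD1 arm these were the isotype and anti-PD1 libraries at 0.1 and 0.01 µg/ml and the combination library at 0.1 µg/ml. For JUNB and PIM3 in the anti-LAG3 arm they were the isotype libraries at 0.1 and 0.01 µg/ml and all anti-LAG3 libraries, and for JUNB also the combination library at 0.1 µg/ml. For BCL6 against isotype they were the isotype libraries at 1 and 0.01 µg/ml, all anti-LAG3 libraries, the anti-PD1 library at 1 µg/ml and the combination library at 0.1 µg/ml, and for BCL6 against anti-LAG3 the combination and anti-LAG3 libraries at 1 and 0.1 µg/ml. For CCL22 and CCND2 they were all anti-LAG3 libraries, the combination and anti-PD1 libraries at 1 and 0.1 µg/ml and the isotype library at 0.1 µg/ml.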

How the data were processed

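The authors deposited raw read counts per gene symbol, not normalised, with a gene length in bases per the file headers. DESeq2, Subread 1.5.2 with featureCounts, STAR 2.5.2b, Trimmomatic 0.36 and the build GRCh38 are named per the submitters' processing notes. Neither annotation nor strand setting is given in the sources used here. The authors also deposited log2 fold changes, standard errors and p-values for each antibody library against the 3 isotype libraries. Not used were 4 count columns that match no sample and 36 columns of per-sample values in those tables.

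Counts were scaled with TMM and tested with edgeR 4.0.16 in R 4.3.3 (quasi-likelihood, robust) after filterByExpr at a minimum of 10 counts, with Benjamini-Hochberg adjustment over all 15535 genes tested and a threshold of 0.05. Arms were compared in a model with arm and dose as factors (6 residual degrees of freedom), and slopes in a model of arm and log10 dose centred at 0.1 µg/ml (4 degrees of freedom). All 12 libraries shared 1 estimate of the spread. CPM were computed on total counts, and TPM with the deposited lengths. Intervals on 1 library are exact at 95% and cover counting error only. Correlations used log2 CPM with a prior count of 2. The scripts were tested on simulated data with the same spread for every gene, which is simpler than these libraries. Changes of 0.5 and 1 on the log2 scale were put into the combination arm. Those in its mean were called for 78% and 85% of the changed genes, with 13 false calls. Those in its slope were called for 72% and 82%, with 16 false calls. How reliable the calls on the real libraries are was not tested by this.

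Alternatives were DESeq2 size factors, no filter, DESeq2 1.42.0, a T minus B marker covariate, corrections for gene length and for GC content with gene length (GC known for 88.1% of genes), no dose term, slopes against 0, and leaving out each library. All 9 members were named, other pathway genes only where called, and for the 4 members called or fixed for it the 3 genes of highest r, of which 1 is not reported here. NAB2, MAPKAPK3 and LRP1 were looked at because they overlap members. The members and lists were chosen with earlier results of these data known.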

Additional observations from a re-analysis of the deposited data

Results flagged for a closer look

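IFNAR2 was the 1 pathway gene called for a difference in dose slope between antibody arms, in combination against anti-LAG3, where 0.766% of all genes were called. Its slope in the combination arm exceeded that in the anti-LAG3 arm by 0.27 ± 0.06 on the log2 scale per 10-fold dose (edgeR, adjusted p = 0.0296). Against the anti-PD1 slope the difference was 0.23 ± 0.06 and was not called (adjusted p = 0.106). Other pathway genes had larger slope differences that were not called. These were IL2RA against anti-PD1 (1.01 ± 0.24, adjusted p = 0.0527) and, against anti-LAG3, IL2RA (0.93 ± 0.24, adjusted p = 0.0738), TNFRSF8 (−0.41 ± 0.10, adjusted p = 0.0573) and IL9R (0.33 ± 0.09, adjusted p = 0.0759). The IFNAR2 call ended in DESeq2 (adjusted p = 0.194) and with the length correction (adjusted p = 0.233). It also ended without any 1 of the combination or anti-LAG3 libraries at 1 or 0.01 µg/ml (0.18 to 0.36, adjusted p 0.294 to 0.989). Dixon's test for an outlying library needs 4 samples and was not run on arms of 3.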

How the results depend on the processing

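No paired analysis was possible because the labels give no replicate numbers and each arm has 1 library per dose. The dose shared by the arms served as the block. With no replicate block (no dose term) the members called in anti-LAG3 against isotype were 0, against 1, with 9.43% of all genes called. No called difference or slope changed sign, while uncalled STAT4 slopes turned sign in 1 fit each in 4 comparisons (lowest −0.47). Uncalled values of each other member also turned sign in some fits. For the arm mean of CISH in anti-PD1 against isotype this was 6 of 18 fits, and for that of SOCS1 in combination against anti-PD1 6 of 19. Members called in combination against isotype numbered 1, against 0, with no filter (0.399% of all genes), the length correction (0.624%) or the GC and length correction (0.631%). They numbered 0 to 2 without single libraries (0 to 1.71% of all genes). In anti-LAG3 against isotype they numbered 0, against 1, with the marker covariate (0.135% of all genes), the length correction (0.142%) or the GC and length correction (0.0837%). Without single libraries they numbered 0 to 2 (2.68% to 12.9% of all genes). In combination against anti-PD1 they numbered 1 with no filter (0.960% of all genes) and 0 to 1 without single libraries (0 to 2.22%), against 0. In combination against anti-LAG3 they numbered 0 to 2 without single libraries (0.296% to 9.36% of all genes), against 0. For the combination slope they numbered 2, against 0, when the isotype slope was not subtracted, a setting in which 4.27% of all genes were called. DESeq2 gave no adjusted p for 36 of 90 member values, STAT4 in the anti-LAG3 arm among them.

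Counts over all genes moved more. Called genes in arm means were 1 in combination against isotype (0 to 145 over the other settings), 594 in anti-PD1 against isotype (53 to 862), 1560 in anti-LAG3 against isotype (13 to 1735), 55 in combination against anti-PD1 (4 to 349) and 893 in combination against anti-LAG3 (47 to 1292). Called slopes were 719 (294 to 824), 41 (0 to 196), 11 (5 to 71), 100 (21 to 170) and 119 (36 to 207) for the same comparisons. These ranges are over settings with all libraries. With 1 library left out the arm counts were 0 to 271, 0 to 1044, 424 to 2045, 0 to 353 and 47 to 1487, and the slope counts 34 to 955, 0 to 122, 1 to 24, 6 to 147 and 8 to 181. The lowest arm counts came without the combination at 1 µg/ml, isotype at 0.1 µg/ml or anti-PD1 at 0.01 µg/ml, isotype at 0.1 µg/ml, anti-PD1 at 0.01 µg/ml and the combination at 0.1 µg/ml. The lowest slope counts came without isotype at 1 µg/ml in the first 3 comparisons, in the third equally without anti-LAG3 at 1 µg/ml, then without the combination at 1 µg/ml and anti-LAG3 at 0.01 µg/ml. The length correction turned the split of the combination slope against isotype to 279 higher and 15 lower, against 284 and 435, and that of anti-PD1 against isotype to 498 and 5, against 325 and 269. The correction also moved the median of all genes. That median went from 0.006 to 0.28 for this slope and from −0.005 to 0.24 for anti-PD1 against isotype. The cause of these shifts was not tested. Depth limits STAT4, SOCS3, CISH, SOCS2 and CCND2, each on under 80 reads per library. IL2RA had 221 reads in the combination at 1 µg/ml and 32 to 84 in every other library.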
